A study of Mus musculus with 48 samples.

Results

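The 10 genes described here, Fos, Fosb, Jun, Junb, Jund, Egr1, Atf3, Ier2, Ier3 and Zfp36, are the immediate early genes that rise within minutes in cells taken from a tissue, and were chosen by name among the 54752 genes of the expression matrix. All 10 matched 1 Ensembl gene each, and all 10 were at 1 TPM or more in each of the 48 libraries. The RNA came from Prox1-eGFP mice on a C57BL/6 background, males whose Prox1 locus carries an eGFP reporter, so that lymphatic endothelial cells (LECs) are green. Each of 4 populations, LECs of the heart, blood endothelial cells (BECs) of the heart, LECs of the diaphragm and cardiomyocytes, gave 12 libraries: 4 from mice with minipumps that released bovine serum albumin (ctrl), 5 from mice infused with human angiotensin II (angII) and 3 from mice that received it along with VEGFCc156s (angII+VEGFC), a form of VEGF-C selective for VEGFR3. The infusions lasted 5 to 6 weeks and the mice were 8 to 16 months old by the labels. The study's methods give the ages in weeks, and the ages of the labels were used as the covariate.

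All cells came from minced tissue digested with enzymes in a warm, shaken bath. Cardiomyocytes were then pelleted at low speed, washed and lysed, whereas the endothelial cells were filtered, freed of red cells, stained with antibodies on ice and sorted as live CD31-positive, CD45.2-negative cells with or without eGFP. The 3 heart populations came from the same 12 mice, and 11 of the 12 diaphragm LEC libraries from mice among these. Endothelial libraries were sequenced in batch 1 or batch 2 and cardiomyocyte libraries in batch 3 alone. The population, the way of isolation and the batch therefore cannot be told apart in any comparison with cardiomyocytes, and no library of undigested tissue was analysed here.

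Immediate early genes are transcribed within minutes of a growth factor, a stretch, a wound or an enzyme digestion, without new protein synthesis. Kinases of the MAPK family activate factors that already sit on their promoters, SRF with its ETS partners and CREB, and the transcripts are then destroyed quickly because their 3′ ends carry AU-rich elements. FOS and JUN proteins pair to form the factor AP-1, EGR1 is a zinc finger factor, ATF3 is a stress-induced factor that binds CRE and AP-1 sites, and IER2 and IER3 are small proteins of the early response. ZFP36, also called tristetraprolin, binds AU-rich elements and hastens the decay of the transcripts that hold them. In sorted endothelium and in heart muscle preparations these genes are known as markers of the dissociation itself.

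On GRCm38 those other than Egr1 were Fos (chr12:85473890-85477273, plus strand), Fosb (chr7:19302696-19310051, minus), Jun (chr4:95049034-95052222, minus), Junb (chr8:84974484-84978718, minus), Jund (chr8:70698949-70700616, plus), Atf3 (chr1:191170296-191218039, minus), Ier2 (chr8:84661331-84662852, minus), Ier3 (chr17:35821684-35822923, plus) and Zfp36 (chr7:28376784-28380253, minus) in the GENCODE annotation. In the longest coding transcript Jun, Junb, Jund and Ier2 had 1 exon, Egr1, Ier3 and Zfp36 had 2, and Fos, Fosb and Atf3 had 4. Their GC content ran from 51.9% in Fos to 67.1% in Jund, and each lay above the median of 49.1% over 21901 protein coding genes.

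RefSeq promoters, from 250 bases before to 50 after the start on GRCm38.p6, matched 8 of the 10 genes, and Egr1 and Ier2 had no entry. They were searched on both strands for the serum response element (CArG box), the CRE TGACGTCA, its core TGACG, the AP-1 site TGANTCA and the TATA box TATAAA, where the core is also part of the CRE. The core stood in 4 of the 8, Fos, Fosb, Junb and Atf3, against 20.9% of 32544 promoters. The TATA box was found in 2, Fos and Junb (13.6% of promoters), where that of Junb begins at the RefSeq start itself. The Junb window is chr8:84978699-84978998 (minus), and the gene in the GENCODE annotation starts downstream of the RefSeq start, at 84978718. Within these windows the CArG box was found in Zfp36 alone (1.64%), and bases farther from the start were not searched. The Jund window, chr8:70697489-70697788 (plus), ends before the first base of the gene in the GENCODE annotation (70698949). No window held the whole CRE (1.80% of promoters) or the AP-1 site (7.79%). The promoters of Fos, Fosb and Zfp36 are shown because they carry the CRE core and the CArG box, in capitals like the TATA box. They lie at chr12:85473640-85473939 (plus), chr7:19309996-19310295 (minus) and chr7:28379179-28379478 (minus), and each is written 5′ to 3′ on the strand of the gene. In Fos the cores begin 129 and 66 bases and the TATA box 33 bases before the start, in Fosb the core begins 60 bases before it and in Zfp36 the CArG box 58 bases before it.
Fos: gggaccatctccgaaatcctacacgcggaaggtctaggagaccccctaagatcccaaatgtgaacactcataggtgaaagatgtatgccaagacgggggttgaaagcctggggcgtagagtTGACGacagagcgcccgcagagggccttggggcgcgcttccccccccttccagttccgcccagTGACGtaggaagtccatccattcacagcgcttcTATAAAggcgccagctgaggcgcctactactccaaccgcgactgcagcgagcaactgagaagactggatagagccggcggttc
Fosb: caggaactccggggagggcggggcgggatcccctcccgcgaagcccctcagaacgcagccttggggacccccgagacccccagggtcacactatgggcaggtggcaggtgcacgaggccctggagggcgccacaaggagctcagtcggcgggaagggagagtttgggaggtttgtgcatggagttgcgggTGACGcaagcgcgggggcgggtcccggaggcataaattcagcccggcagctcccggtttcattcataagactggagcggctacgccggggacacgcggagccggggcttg
Zfp36: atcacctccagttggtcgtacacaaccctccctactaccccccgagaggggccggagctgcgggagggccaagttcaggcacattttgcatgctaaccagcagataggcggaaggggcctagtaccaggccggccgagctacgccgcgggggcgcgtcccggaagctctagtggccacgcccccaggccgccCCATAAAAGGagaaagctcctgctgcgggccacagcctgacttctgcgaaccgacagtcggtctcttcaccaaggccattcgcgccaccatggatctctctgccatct

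AU-rich pentamers, ATTTA, were counted in the 3′ UTR of the same transcripts, and 9 of the 10 genes held at least 1, with Ier2 at 0, beside 64.7% of protein coding genes with a 3′ UTR. Ier3 had the most, 5 in 613 bases, and 3.01% of 2396 genes with a 3′ UTR of like length had as many. Fos held 4 in 815 bases (12.7% of genes of like length had as many), Zfp36 held 3 in 774 bases (20.7%) and Fosb held 1 in 2145 bases (92.1%). The 30 bases richest in the heptamer TATTTAT are shown for Fos, Ier3 and Zfp36, the 3 genes with at least 2 heptamers, with the pentamers in capitals. A match describes letters and not a working element.
Fos: acgtttttattgtgttttcaATTTATTTAt
Ier3: tccgtgtctaattaatATTTAtgtATTTAt
Zfp36: gggccctttATTTAtgacgactttATTTAt

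Levels are given in TPM, a unit that corrects for transcript length and makes the values of a library sum to a constant, so a level is a share of that library's RNA. In bulk samples fewer cells of a type and less RNA per cell cannot be told apart. Together the 10 genes took 2.36% to 3.69% of all TPM in the heart LEC libraries, 2.53% to 3.88% in heart BECs and 2.64% to 3.92% in diaphragm LECs. In cardiomyocytes they took 0.793% to 1.23%, so no endothelial library reached down to the highest cardiomyocyte library. The cardiomyocyte and LEC markers fitted the labels. The summed cardiomyocyte markers were at 8028 TPM or more in each cardiomyocyte library and at most 1027 TPM in any endothelial library. The summed LEC markers were at 18170 TPM or more in each LEC library against at most 708 TPM in heart BECs. The summed blood endothelial markers overlapped between heart LECs (2704 to 3778 TPM) and heart BECs (3258 to 5079 TPM). They set both apart from cardiomyocytes (527.4 to 964.2 TPM) but not from each other.

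Fos was the most abundant member in every population. It lay between 6963 and 11600 TPM in heart LECs (median 8545), 6885 and 10761 TPM in heart BECs (median 8323) and 6717 and 10787 TPM in diaphragm LECs (median 8450). Its median rank among all genes was 5, 6 and 5.5 in this order. In cardiomyocytes it lay between 2110 and 2902 TPM, median 2346, at a median rank of 40.5. The endothelial ranges lie on top of each other and none touches that of cardiomyocytes. Fosb, of the same family, was far lower in each population, with medians of 248.0 TPM in heart LECs, 366.6 in heart BECs, 265.8 in diaphragm LECs and 114.9 in cardiomyocytes. Its libraries spread widely, from 129.6 to 380.7 TPM in heart LECs and from 33.9 to 183.3 TPM in cardiomyocytes, and those 2 ranges overlap.

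The JUN proteins are the other side of AP-1. Junb was the second most abundant member, with medians of 6314 TPM in heart LECs, 5151 in heart BECs, 6904 in diaphragm LECs and 2026 in cardiomyocytes, where the highest library (2746) stayed below the lowest endothelial library (4057). Jun had medians of 2884, 3247 and 2452 TPM in heart LECs, heart BECs and diaphragm LECs and 891.3 TPM in cardiomyocytes, with 637.1 to 1086 TPM in the latter and 2112 TPM in the lowest endothelial library. Jund, which is usually less inducible than the others, had medians of 2508, 2541, 2142 and 832.9 TPM in the same order. Its lowest heart LEC library (1183) and its lowest diaphragm LEC library (1141) lay below its highest cardiomyocyte library (1351).

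Egr1 (chr18:34859823-34864984, plus strand) had medians of 3019 TPM in heart LECs, 3283 in heart BECs, 3621 in diaphragm LECs and 1022 in cardiomyocytes, and its highest cardiomyocyte library (1416) lay below its lowest endothelial library (2063). Atf3 had medians of 1941, 2576, 2221 and 647.2 TPM in the same order, and Zfp36 1553, 2528, 2334 and 680.6 TPM. Both were free of overlap between endothelium and cardiomyocytes. Ier2 and Ier3 set heart BECs apart from the other populations. Ier2 lay between 2082 and 3067 TPM in heart BECs, above each heart LEC library (1069 to 1812), each diaphragm LEC library (1212 to 1749) and each cardiomyocyte library (545.6 to 869.6). Ier3 lay between 1112 and 1393 TPM in heart BECs, against 379.4 to 674.1 TPM in heart LECs, 270.0 to 602.4 TPM in diaphragm LECs and 249.2 to 534.7 TPM in cardiomyocytes. For Ier2 and Ier3 each of the 12 heart BEC libraries thus lay above each of 12 heart LEC libraries, as did 2% of the 29322 genes tested, and above each of 12 diaphragm LEC libraries, as did 3.3%.

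**Figure D1:**
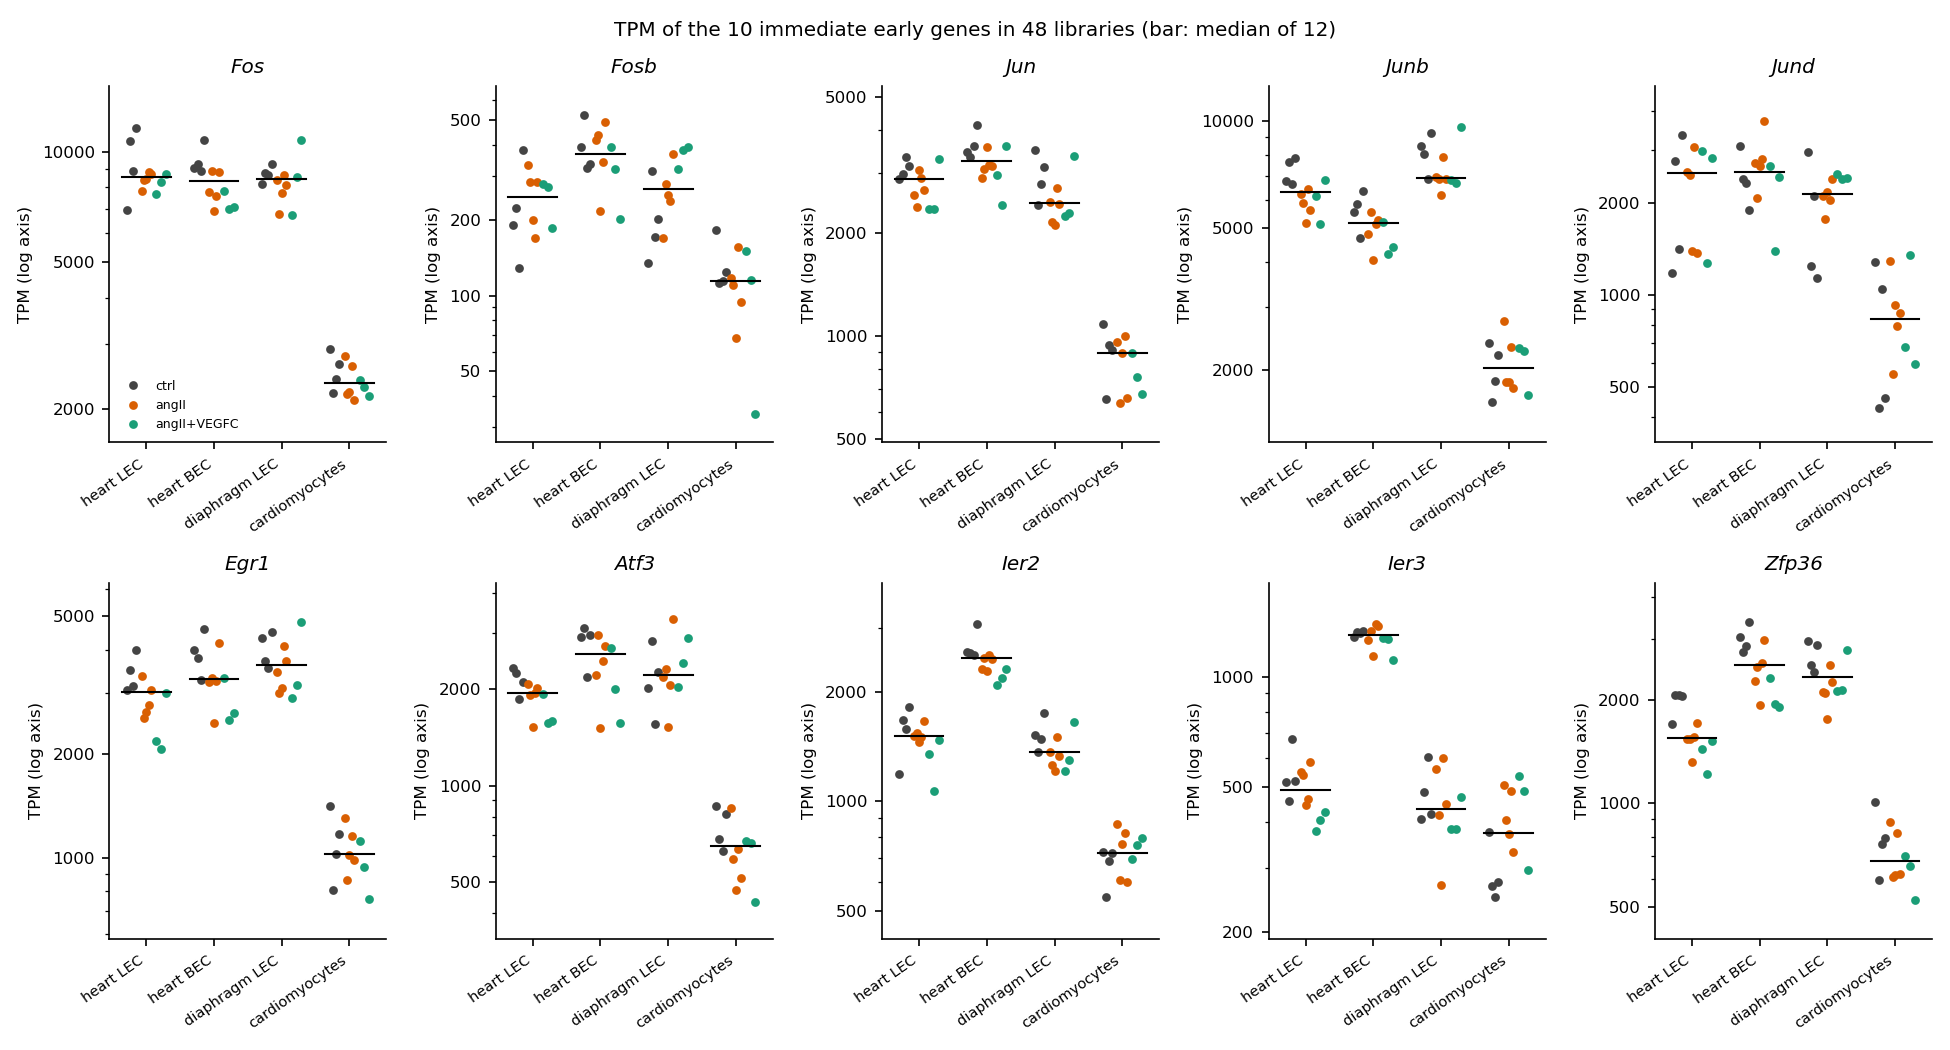
TPM (log axis, a different range in each panel) of each of the 10 genes, 1 point per library, 12 libraries per population, coloured by treatment, with a bar at the median. Cardiomyocytes have the lowest median in each panel, Ier2 and Ier3 stand out in heart BECs, and Jund falls into a high and a low set of libraries in heart LECs.

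The first comparison asked how sorted endothelium differed from pelleted cardiomyocytes. It was made with limma on log2(TPM + 1), with age as a covariate and the treatment groups weighted equally, over 29322 genes, those that reached 1 TPM in 3 or more libraries of a population, and a gene was called at a Benjamini-Hochberg adjusted p under 0.05. All 10 members were higher in heart LECs, where 58.7% of all genes tested were called higher, all 10 were higher in heart BECs, where 41.1% were, and all 10 were higher in diaphragm LECs, where 43.6% were. The members' median log2 difference was 1.43, 1.77 and 1.72 in this order, beside medians of 0.63, 0.45 and 0.48 over all genes tested. In heart LECs 7 of the 10 lay above cardiomyocytes in each library against each library, beside 9.83% of genes, in heart BECs 10 did, beside 18.6%, and in diaphragm LECs 7 did, beside 12%.

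Fos was 1.85 ± 0.08 (SE) log2 units higher in heart LECs, 1.77 ± 0.08 in heart BECs and 1.80 ± 0.08 in diaphragm LECs, or 3.61, 3.41 and 3.49 times the level in cardiomyocytes (limma, adjusted p = 3.92e-24, 3.99e-23 and 6.78e-24). Its differences are nearly equal across the endothelium, unlike those of several other members. Junb differed most in diaphragm LECs (1.88 ± 0.08) and least in heart BECs (1.29 ± 0.08), and Zfp36 by 1.82 ± 0.09 in heart BECs and 1.77 ± 0.09 in diaphragm LECs against 1.20 ± 0.09 in heart LECs. Over the 3 endothelial populations the difference was 1.67 to 1.97 for Jun, 1.48 to 1.84 for Egr1, 1.58 to 1.89 for Atf3, 1.37 to 1.59 for Jund and 1.15 to 1.71 for Fosb. Ier2 was 1.76 ± 0.08 higher in heart BECs but 1.03 ± 0.08 and 0.99 ± 0.08 in heart and diaphragm LECs.

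Ier3, a stress gene of the NF-κB pathway, was the member that hardly differed between LECs and cardiomyocytes. It was 1.78 ± 0.11 higher in heart BECs, 0.38 ± 0.11 in heart LECs (adjusted p = 0.00227) and 0.26 ± 0.11 in diaphragm LECs (adjusted p = 0.0403), and both LEC values are below the median of all genes. With quantile normalization, which gives each library the same distribution of values, Ier3 was −0.20 in heart LECs, not called (adjusted p = 0.0931), and −0.39 in diaphragm LECs, called lower (adjusted p = 0.00113). Recomputing TPM without the mitochondrial genome gave 0.02 and −0.13 in the same order, called in neither. In the ctrl libraries alone the heart LEC value was 0.89 and the diaphragm LEC value 0.71, both called. In diaphragm LECs the call was lost without any one of the diaphragm libraries of mice 3, 5, 8, 9 and 18 or the cardiomyocyte libraries of mice 5, 8, 9, 11, 12 and 14, with values from 0.17 to 0.25. The other 9 members stayed higher under both scalings, with a members' median of 1.16, 1.24 and 1.57 beside 0.15, 0.10 and 0.14 for all genes with quantile normalization.

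**Figure D2:**
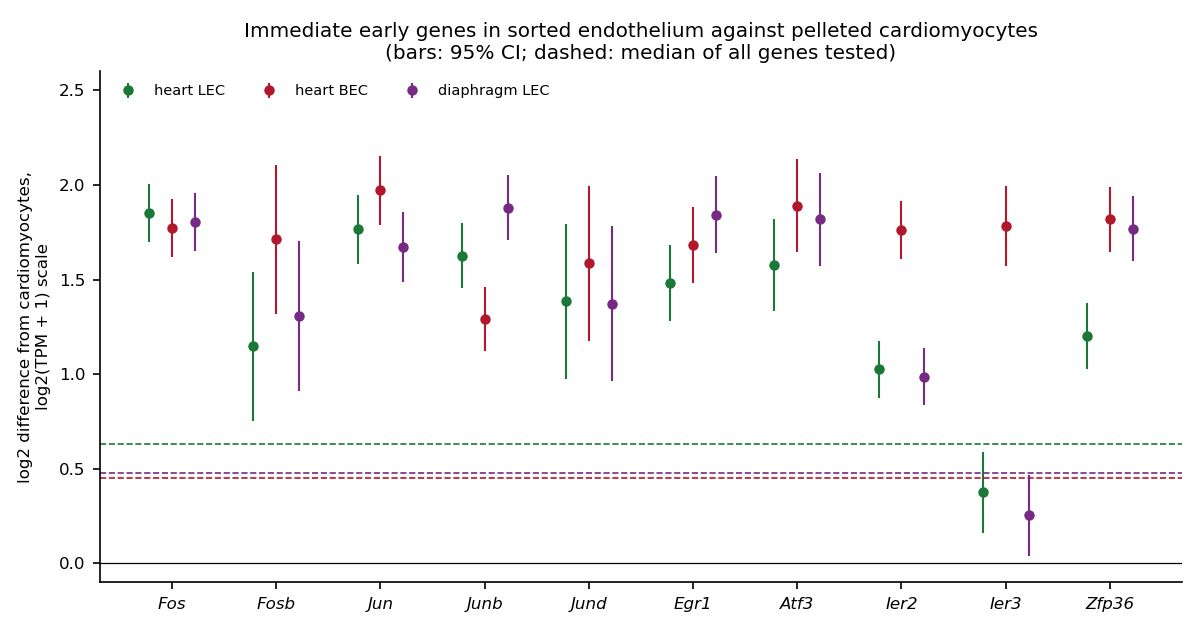
Difference of each gene from cardiomyocytes (y axis, log2 units on the log2(TPM + 1) scale; point, limma estimate; bar, 95% confidence interval) in heart LECs, heart BECs and diaphragm LECs, with the median of all genes tested as a dashed line per population. The points lie above the dashed lines except those of Ier3 in both LEC populations.

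Other quantities moved with the same contrast. The mitochondrial genome took 15.9% to 31.0% of TPM in cardiomyocytes, against 1.64% to 8.76% in heart LECs, 2.70% to 4.24% in heart BECs and 0.910% to 4.08% in diaphragm LECs. The cardiomyocyte pellets also held RNA of other cells. All 7 blood endothelial markers (Cdh5, Pecam1, Kdr, Flt1, Emcn, Cldn5 and Nos3) were detected there, with a sum of 527.4 to 964.2 TPM, and none was at 0 in the median library. The median of that sum was 14.9% of its median in heart BECs. The members' medians in cardiomyocytes were 25.1% (Atf3) to 39.3% (Junb) of theirs in heart BECs, each above the marker share. Fibroblast markers summed to 2371 to 6450 TPM and macrophage markers to 292.9 to 1087 TPM in the pellets, and 6 of 7 macrophage markers were called lower in each endothelial population. The part of these cells and of the mitochondrial share in the members' levels was not tested.

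The next comparison set heart LECs against heart BECs, which were sorted from the same digest of the same heart. The members did not move together. Junb was 0.33 ± 0.08 higher in heart LECs (adjusted p = 0.00235), as 13.1% of genes tested were, and 4 members were lower, as 10.8% of genes were: Ier3 by −1.41 ± 0.11, Ier2 by −0.74 ± 0.08, Zfp36 by −0.62 ± 0.09 and Fosb by −0.57 ± 0.20 (adjusted p = 1.24e-14, 9.19e-11, 1.85e-07 and 0.0295). Fos differed by 0.08, with a 95% confidence interval from −0.07 to 0.23. The other members that were not called, Jun, Jund, Egr1 and Atf3, differed by −0.31 to −0.20. With the mouse as a replicate block 7 members were called, with Jun (−0.21, adjusted p = 0.0359) and Atf3 (−0.31, adjusted p = 0.0127) also lower. The calls of Junb and Fosb were lost within batch 1 (0.31 and −0.61), within batch 2 (0.33 and −0.54) and in the ctrl libraries alone (0.37 and −0.85), each with an adjusted p above 0.05, whereas Ier2, Ier3 and Zfp36 were called in all 3. The call of Fosb was also lost without any one of the heart LEC libraries of mice 8 and 9 or the heart BEC libraries of mice 2, 5 and 6 (−0.55 to −0.48).

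Between the LECs of the heart and of the diaphragm no member was higher in the heart, where 4.66% of genes tested were called higher, and 2 were lower, where 2.78% were. Zfp36 was −0.57 ± 0.09 (adjusted p = 6.19e-06) and Egr1 −0.36 ± 0.10 (adjusted p = 0.0195). The remaining 8 members differed by −0.25 to 0.12. With the mouse as a replicate block 3 members were called, Junb being the added one (−0.25, adjusted p = 0.0244). In the ctrl libraries alone 0 members were called by limma, with Zfp36 at −0.45 and Egr1 at −0.23, and within batch 1 and within batch 2 Zfp36 was the single call. The call of Egr1 was lost without the heart LEC library of mouse 6 (−0.32, adjusted p = 0.0559) and without the diaphragm LEC library of mouse 8 (−0.29, adjusted p = 0.0854).

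**Figure D3:**
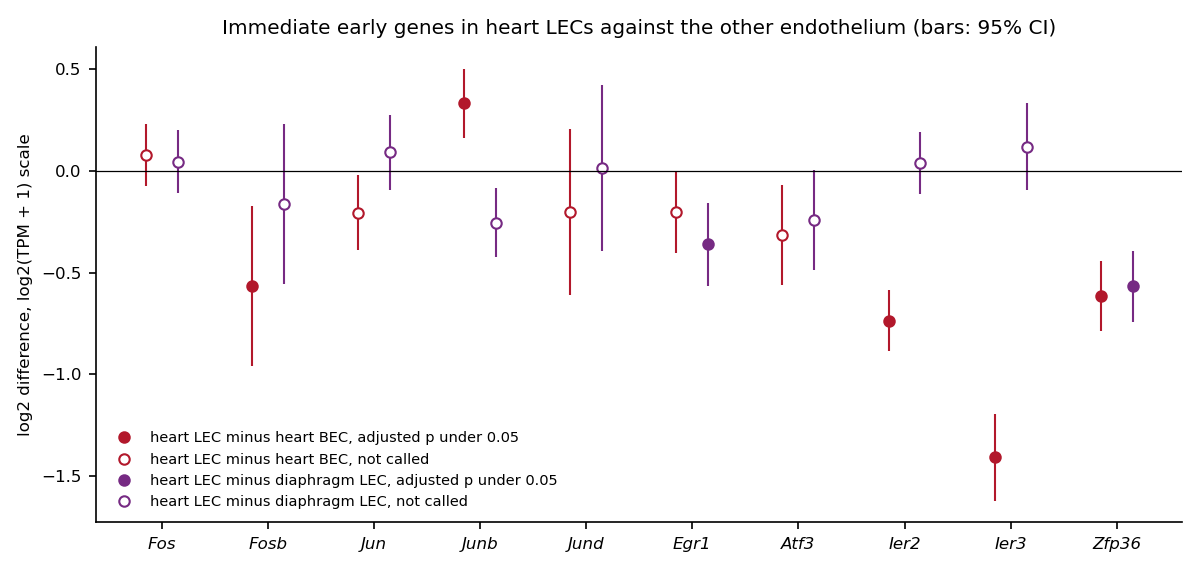
Difference of each gene between heart LECs and heart BECs and between heart LECs and diaphragm LECs (y axis, log2 units; point, limma estimate; bar, 95% confidence interval; filled, adjusted p under 0.05). Ier3, Ier2, Zfp36 and Fosb lie below 0 against heart BECs and Junb above it, while Zfp36 and Egr1 lie below 0 against diaphragm LECs.

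Treatment was compared within each population, with age and, for endothelium, batch as covariates. No member was called in any of the 12 contrasts. The share of genes called by limma was 0.0261% for angII against ctrl in heart LECs, 0.0892% for angII against ctrl in cardiomyocytes, 0.663% for angII+VEGFC against ctrl in cardiomyocytes and 0% in the other 9. At an unadjusted limma p under 0.05, 16 of the 120 values passed, and they are named here. Over all genes 314 to 3651 passed in each contrast. The genes tested numbered 26803 in heart LECs, 21281 in heart BECs, 23839 in diaphragm LECs and 15691 in cardiomyocytes. The other 104 values lay between −0.59 and 0.41. The contrasts of a population share libraries, so their values are given side by side and not counted as separate evidence.

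Zfp36 was the member with the most such values, and each was negative. In heart LECs it was at 1703, 2060, 2068.5 and 2056 TPM in the ctrl libraries, at 1534, 1544, 1318, 1563 and 1708 TPM with angII and at 1438, 1217 and 1516 TPM with angII+VEGFC. Of the angII libraries 1 reached past the lowest ctrl library, and no angII+VEGFC library did. The share of all genes so separated in heart LECs was not computed. The log2 change of Zfp36 was −0.35 ± 0.13 with angII (limma, adjusted p = 0.353) and −0.52 ± 0.15 with angII+VEGFC against ctrl (adjusted p = 0.915). With angII the median log2 change in heart LECs was also 3.25 for the 3 erythroid markers, 1.69 for the 7 pericyte and smooth muscle markers, 1.59 for the 6 fibroblast markers (1 called higher) and 1.03 for the 8 cardiomyocyte markers. The median over all genes was 0.23. With angII+VEGFC against ctrl the median was 1.38 for the 5 macrophage markers tested, beside −0.13 over all genes. Detected genes (1 TPM or more) numbered 16131 to 24086 in ctrl, 19957 to 25896 under angII and 16756 to 18884 under angII+VEGFC. The part of these in the members' values in heart LECs was not tested. In heart BECs the changes were −0.32 ± 0.14 (adjusted p = 0.914) and −0.54 ± 0.16 (adjusted p = 0.798), from 2756 to 3381 TPM in ctrl to 1932 to 2992 TPM with angII and 1912 to 2313 TPM with angII+VEGFC. In diaphragm LECs the change with angII was −0.32 ± 0.14 (limma, adjusted p = 0.318). There the median log2 change was 2.91 for erythroid, 1.37 for cardiomyocyte and 1.11 for fibroblast markers, beside 0.28 over all genes. The other marker lists had medians from −0.71 to 0.38. With angII in heart BECs the medians of the marker lists ran from −0.60 to 0.76. No marker was called in these 2 populations, and the part of these in the values of Zfp36 was not tested.

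In heart LECs the log2 change of Junb was −0.27 ± 0.11 for angII and −0.32 ± 0.13 for angII+VEGFC, both against ctrl, that of Egr1 −0.57 ± 0.17 and that of Atf3 −0.39 ± 0.15 in the latter contrast. Egr1 lay between 3054 and 3995 TPM in ctrl and at 2170, 2063 and 2987 TPM with angII+VEGFC. In heart BECs Fos was −0.38 ± 0.15, Egr1 −0.49 ± 0.19 and Ier2 −0.30 ± 0.12 with angII+VEGFC against ctrl. Fos was at 8857 to 10761 TPM in ctrl and at 7819, 6996 and 7053 TPM with angII+VEGFC. For 4 members, Fos, Ier2, Ier3 and Zfp36, each of these 3 libraries lay below each of the 4 ctrl libraries, as did 2.38% of genes tested. The adjusted p of each of these values was 0.401 or higher. All 10 members had a negative estimate with angII+VEGFC against ctrl in heart BECs, with a median of −0.35 beside −0.01 for all genes tested. In heart LECs 9 of 10 were negative, with a median of −0.30 beside −0.13. The median log2 change in heart BECs in this contrast was 0.86 for the 3 erythroid markers and 1.39 for the 2 skeletal muscle markers tested. The other marker lists had medians from −0.21 to 0.35, and no marker was called. The part of these in the members' values in heart BECs was not tested.

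Of the 16 values those with a positive sign were those of Fosb and Jund in diaphragm LECs and of Ier3 in cardiomyocytes. In diaphragm LECs Fosb was 0.81 ± 0.28 and Jund 0.61 ± 0.22 with angII+VEGFC against ctrl (adjusted p = 1.00 for both). Fosb was at 135.7, 314.8, 171.3 and 202.6 TPM in ctrl and at 319.7, 381.0 and 390.0 TPM with angII+VEGFC, above each ctrl library. The share of all genes so separated in diaphragm LECs was not computed. Jund was at 2946, 1247, 2112 and 1141 TPM in ctrl and 2490, 2402 and 2428 TPM with angII+VEGFC, so that 1 ctrl library lay above and 3 below the treated ones. In this contrast the median log2 change was −1.95 for cardiomyocyte and 1.63 for erythroid markers, none called, beside 0.05 over all genes. The part of these in the values of Fosb and Jund was not tested. In cardiomyocytes the change of Ier3 from ctrl was 0.53 ± 0.21 under angII and 0.55 ± 0.25 under angII+VEGFC (adjusted p = 0.418 and 0.361). It was at 375.2, 267.7, 249.2 and 275.0 TPM in ctrl, at 505.6, 404.2, 370.7, 488.2 and 330.5 TPM with angII and at 534.7, 487.2 and 295.6 TPM with angII+VEGFC. The groups overlap at the ctrl library of mouse 1. Without the angII+VEGFC library of mouse 8 the change with angII+VEGFC was 0.81 and was called (adjusted p = 0.0455). In the pellets the median log2 change under angII and angII+VEGFC was 1.10 and 1.02 for fibroblast markers. It was 0.85 and 0.77 for macrophage markers and −0.10 and −0.31 for cardiomyocyte markers, none called, beside 0.12 and 0.11 over all genes. The median of the 3 skeletal muscle markers tested was higher still in both contrasts. The part of these in the values of Ier3 was not tested.

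The addition of VEGFCc156s to angiotensin II gave no unadjusted p under 0.05 for any member in any population. The values largest in size were −0.36 ± 0.17 for Egr1 in heart LECs, −0.47 ± 0.30 for Fosb in heart BECs, 0.41 ± 0.27 for Fosb in diaphragm LECs and −0.24 ± 0.42 for Fosb in cardiomyocytes. Fosb also had the largest value for angII against ctrl in diaphragm LECs, 0.39 ± 0.23, and for angII+VEGFC against ctrl in cardiomyocytes, −0.59 ± 0.41. With each library left out in turn the heart BEC value lay between −0.92 (without angII+VEGFC mouse 2) and −0.21 (without mouse 8) and the diaphragm LEC value between 0.24 and 0.57, and the latter was −0.23 with the number of detected genes as a covariate. Without the angII+VEGFC library of mouse 8, at 33.9 TPM, the cardiomyocyte values were 0.30 against angII and 0.0047 against ctrl. Whether a treatment acted differently in 2 endothelial populations was tested in 6 interactions over 28938 genes. No member was called, with 1459 to 3405 genes at an unadjusted limma p under 0.05, beside 0.00691% of genes called for angII against ctrl in heart LECs minus diaphragm LECs and 0% for the other 5. By unadjusted limma p under 0.05 there were 2 member values, Fosb (0.87 ± 0.42) and Zfp36 (0.36 ± 0.18) for angII+VEGFC against angII in diaphragm LECs minus heart BECs (adjusted p = 0.686 and 0.688). With the mouse as a replicate block 0 members were called in the 6 interactions.

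**Figure D4:**
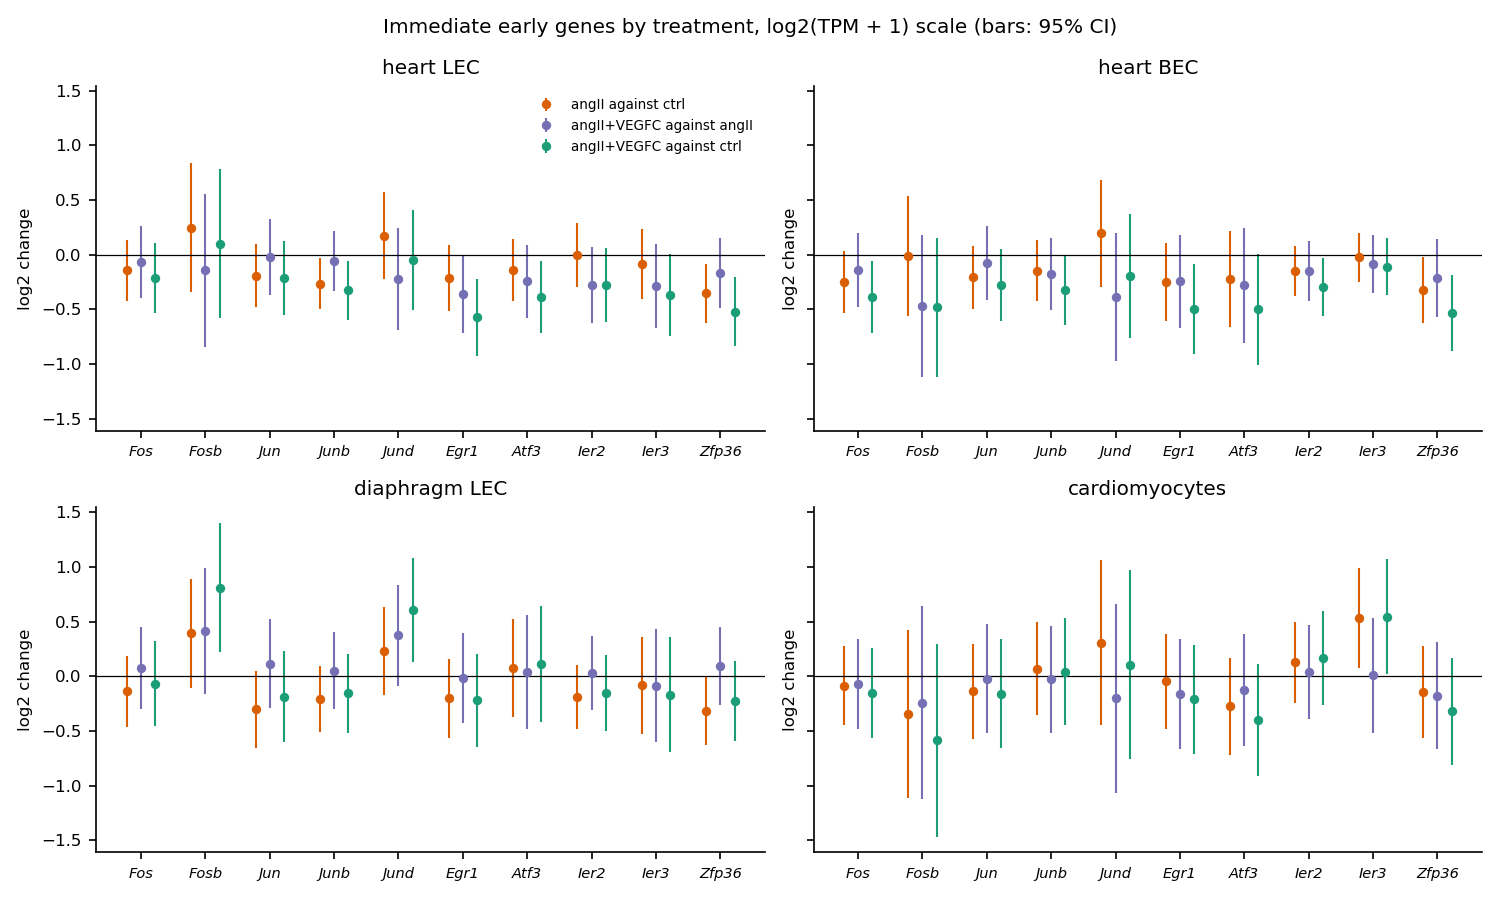
Log2 change of each gene for the 3 treatment contrasts (y axis, log2(TPM + 1) scale; point, limma estimate; bar, 95% confidence interval) in each population. Most intervals cross 0, and those of Zfp36 lie below 0 in 5 of the 8 contrasts with ctrl.

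Several members varied with Fos between the libraries of a population. Pearson's r of Fos with each of the other 9 was computed over the 12 libraries of each population, 36 relations in all, on log2(TPM + 1). It was positive in 35, and 15 had a Benjamini-Hochberg adjusted p under 0.05 in a two-sided permutation test with 100000 resamples. The share of all genes that vary with Fos at this threshold was not computed. Zfp36 followed Fos closely in cardiomyocytes (r = 0.956, rho = 0.916, permutation p adjusted to 0.00024 for r and 0.00228 for rho) and in heart BECs (r = 0.929, rho = 0.860, adjusted 0.00024 and 0.00297). Without the 2 libraries farthest from the median of Fos these were 0.908 and 0.892, and both still passed. Egr1 followed Fos in heart BECs (r = 0.917, rho = 0.888), cardiomyocytes (r = 0.886, rho = 0.902) and diaphragm LECs (r = 0.819, rho = 0.755), with permutation p adjusted to 0.00024, 0.000864 and 0.00381 for r and 0.00266, 0.00228 and 0.0168 for rho. Without the farthest libraries r was 0.857, 0.768 and 0.656, of which the first passed. In heart LECs Ier2 was the single relation that passed (r = 0.715, rho = 0.797, permutation p adjusted to 0.0282 and 0.00850), and it was 0.578 without the 2 farthest libraries and no longer passed. Of the 15 relations 6 passed without the farthest libraries. Leaving them out also narrows the range of Fos and the number of libraries. A lost call therefore does not show that a relation rests on them. Within batch 2 mice 11 of 27 endothelial relations passed and within batch 1 mice 0 of 27, with 6 libraries in each. The r of Jund with Fos was 0.46 in heart LECs, 0.06 in heart BECs, −0.17 in diaphragm LECs and 0.38 in cardiomyocytes, and that of Ier3 0.10, 0.62, 0.37 and 0.27, none of which passed.

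The libraries of a mouse were compared across populations for each member, 40 relations in all, and 31 were positive. The share of all genes with such relations was not computed. Jun (r = 0.834, rho = 0.923), Atf3 (r = 0.867, rho = 0.804) and Zfp36 (r = 0.832, rho = 0.825) passed between heart LECs and heart BECs over 12 mice, with permutation p adjusted to 0.0070, 0.0070 and 0.0124 for r and 0.0032, 0.0295 and 0.0295 for rho. Without the 2 farthest mice r was 0.785, 0.808 and 0.888, of which the last passed with adjustment. Within 6 mice of batch 1 r was 0.935, 0.880 and 0.878 and within 6 of batch 2 0.787, 0.917 and 0.783, none of which passed an exact permutation test after adjustment. With 6 mice this test has few orderings, so a lone relation could hardly pass, and the lost calls are not read as a result. Once the treatment means were subtracted Atf3 alone passed by r (r = 0.829), and Zfp36 had r = 0.522. No relation then passed by both r and rho. No relation between cardiomyocytes and an endothelial population of the same hearts passed, with r from −0.72 to 0.71 between heart LECs and cardiomyocytes and from −0.24 to 0.65 between heart BECs and cardiomyocytes.

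Jund lies at the 99.7th percentile of GC content among protein coding genes. In heart LECs it was at 1183, 1422, 1395, 1375 and 1275 TPM in 5 of the 6 batch 1 libraries and at 2532 TPM in the other, against 2485 to 3345 TPM in the 6 of batch 2. In cardiomyocytes, sequenced in 1 batch, the mice of endothelial batch 1 had 872.9 to 1351 TPM and those of batch 2 had 428.5 to 792.9 TPM, without overlap and in the opposite order. Of 40 such comparisons of the 10 members in 4 populations this was the 1 without overlap, and it was not tested. Over the 48 libraries, with population means subtracted, the genes most like Jund of 5681 compared were Arf6, Cebpb, Alyref, Phc2 and Ankrd13a (r = 0.93, 0.92, 0.92, 0.91 and 0.91), whereas r with the other members was 0.08 to 0.30. Of these Arf6, Cebpb and Phc2 had a GC content above 60%. Ankrd13a had 56.2% and Alyref 47.0%, the latter below the median of 49.1% over protein coding genes. The genes most like Fos were Btg2, Ppp1r15a, Cebpd, Ccn1 and Cbx7 (r = 0.63, 0.60, 0.59, 0.56 and 0.54), of which the first 4 are early response genes, below its r with Egr1 (0.79), Zfp36 (0.77), Junb (0.73) and Ier2 (0.70). The r of Fos with Jun (0.62), Atf3 (0.53), Fosb (0.34), Ier3 (0.26) and Jund (0.22) was lower than that with Btg2. These r are descriptions over libraries that share mice and batches.

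For each library the median deviation of 259 GC-rich genes (60% or more) from that of 5584 genes was set against the members. Of 40 relations 1 passed with adjustment, Jund in heart LECs (r = 0.728, rho = 0.916, permutation p adjusted to 0.0056 for r and 0.0028 for rho over 12 libraries). It was 0.759 without the 2 farthest libraries, 0.417 within batch 1 and 0.733 within batch 2. In heart BECs, diaphragm LECs and cardiomyocytes r for Jund was 0.517, 0.338 and 0.449 and rho 0.497, 0.343 and 0.441, with permutation p adjusted to 0.430, 0.584 and 0.517 for r and 0.446, 0.484 and 0.446 for rho. This measure was added after the data had been seen. The part of base composition in the level of Jund was not tested.

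**Figure D5:**
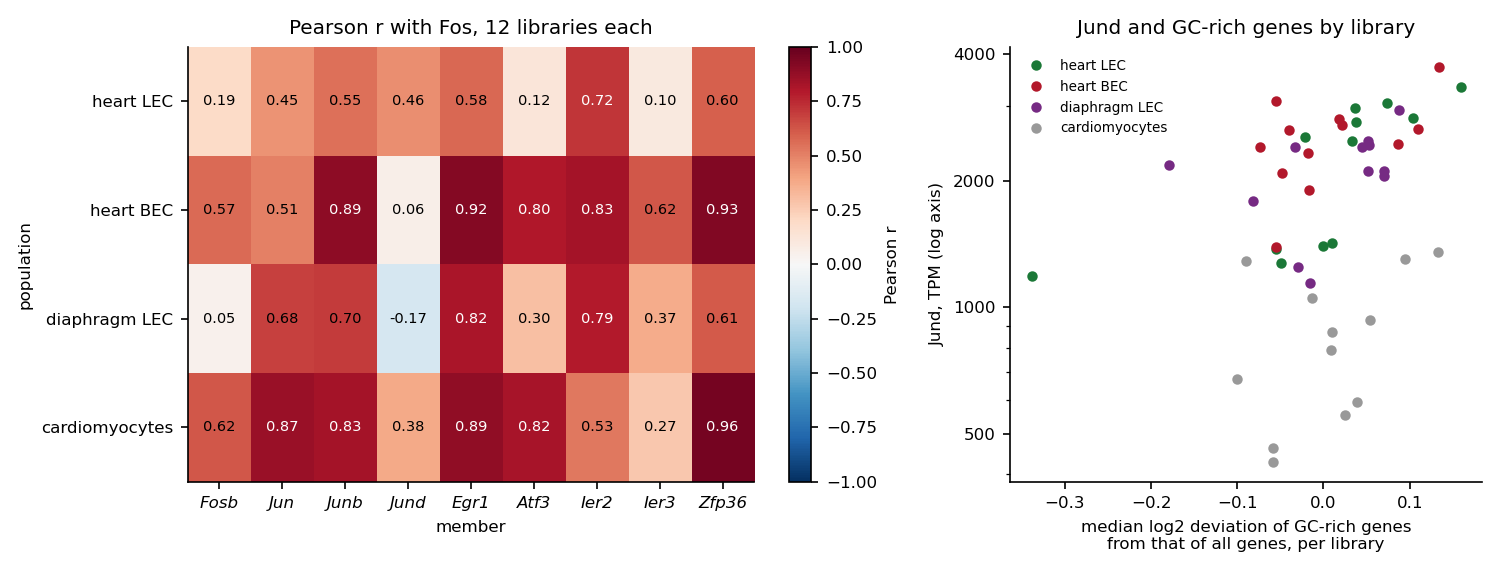
Left, Pearson's r of each member with Fos over the 12 libraries of each population (colour and number). Right, Jund in TPM (log axis) against the median log2 deviation of GC-rich genes in the same library, 1 point per library, coloured by population; Fos and Zfp36 run together in cardiomyocytes (r = 0.956) and Jund has the lowest r in heart BECs and diaphragm LECs.

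The wider early response was read from lists of genes chosen with earlier results of these data known. Against cardiomyocytes, 14 of 20 further early transcription factors were higher and 1 lower in heart LECs, 16 and 0 in heart BECs, and 15 and 0 in diaphragm LECs, beside 58.7%, 41.1% and 43.6% of all genes tested called higher and 7.63%, 7.34% and 8.77% called lower. The median difference of this list was 1.19, 1.64 and 1.29. Klf10 (2.13 ± 0.14) and the endothelial factor Klf4 (1.98 ± 0.13) led in heart LECs, and Irf1 (2.66 ± 0.18) and the flow-responsive factor Klf2 (2.31 ± 0.23) in heart BECs. The nuclear receptor gene Nr4a3 was lower in heart LECs (−1.29 ± 0.32).

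Of 28 early genes that feed back on signalling, 21, 26 and 19 were higher and 3, 0 and 3 lower in heart LECs, heart BECs and diaphragm LECs. Their medians were 0.90, 1.52 and 1.08. The MAPK phosphatase gene Dusp2 (4.69 ± 0.34) and the cytokine signalling inhibitor Socs3 (2.08 ± 0.12) led in heart LECs, where the neuronal early gene Arc (−2.33 ± 0.32) and the EGFR inhibitor Errfi1 (−0.65 ± 0.16) were lower. The kinase genes Sgk1 (2.84 ± 0.12) and Plk2 (2.67 ± 0.12) led in heart BECs. Of 14 heat shock genes 10, 12 and 7 were higher and 0, 0 and 2 lower, with medians of 0.70, 1.36 and 0.43, beside the same shares of all genes called higher and medians of 0.63, 0.45 and 0.48. Hspa8 (1.43 ± 0.12) and Dnajb1 (1.41 ± 0.11) led in heart LECs and Dnaja1 (2.02 ± 0.13) and Hspa1a (1.88 ± 0.19) in heart BECs.

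Of 18 kinases and factors that switch the members on, 16 were higher in each endothelial population and 1, 0 and 1 lower. Over all genes tested 58.7%, 41.1% and 43.6% were called higher and 7.63%, 7.34% and 8.77% lower. The median of this list was 0.98, 1.18 and 0.98, beside 0.63, 0.45 and 0.48 over all genes. The ETS partner of SRF, Elk3, led in heart LECs (2.84 ± 0.09) and heart BECs (2.43 ± 0.09), followed by Atf4 (1.85 ± 0.11) in the former and Elk4 (1.98 ± 0.14) in the latter, while Srf itself was lower in heart LECs (−0.93 ± 0.24). All 7 genes listed for the binding or the decay of AU-rich transcripts were higher in each population. They were Zfp36l1, Zfp36l2, Elavl1, Khsrp, Cnot1, Cnot7 and Hnrnpd. Zfp36l2 was highest in the heart (2.02 ± 0.18 in heart LECs and 1.89 ± 0.18 in heart BECs), followed by Hnrnpd (1.41 ± 0.32) and Zfp36l1 (1.65 ± 0.11) in the same order. The median of these 7 was 1.28, 1.45 and 1.18 in heart LECs, heart BECs and diaphragm LECs. Of 12 known targets of ZFP36, mostly cytokines, 0, 2 and 1 were higher and 8, 5 and 8 lower. Their medians were −1.34, −0.51 and −1.55. Il1b (−4.37 ± 0.45 in heart LECs and −4.72 ± 0.45 in heart BECs) and the chemokine Ccl3 (−4.20 ± 0.42 and −3.47 ± 0.42) were lowest, and Tnf (0.93 ± 0.30) and Il6 (0.84 ± 0.33) were higher in heart BECs. Macrophages are a textbook source of Il1b and Ccl3, and the summed macrophage markers were 5.55 to 129.1 TPM in heart LECs and 11.1 to 36.7 TPM in heart BECs against 292.9 to 1087 TPM in cardiomyocyte pellets. Their part in these values was not tested.

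Between heart LECs and heart BECs the wider lists held more genes that were lower than higher in the LECs. There were 10 lower and 4 higher among the early factors, 13 and 2 among the feedback genes and 5 and 1 among the heat shock genes, beside 10.8% of all genes called lower and 13.1% called higher. The medians were −0.43, −0.43 and −0.19 beside 0.16 for all genes tested. Between heart and diaphragm LECs, 5 of the 14 heat shock genes were higher in the heart and 0 lower, beside 4.66% and 2.78% of all genes, with a median of 0.29 beside 0.12, whereas the early factors had 1 higher and 2 lower. No gene of these lists was called by limma in any of the 12 treatment contrasts.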

How the data were processed

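RNA of 48 libraries was sequenced. The authors aligned the reads to GRCm38 with STAR 2.5.3a and quantified them with Salmon 0.12.0, per the labels and methods, and deposited gene-level TPM for 54752 genes, 54723 of which had a symbol. The deposited TPM values hold no read counts, so depth and counting error are unknown. Genes that reached 1 TPM in 3 or more libraries were tested on log2(TPM + 1) with limma 3.58.1 (R 4.3.3), with trend and age as a covariate. Benjamini-Hochberg adjustment was over all genes at 0.05. Batch was a further covariate in the treatment contrasts within endothelium and in the interactions. The comparisons of populations had no batch term, and the mouse entered them only in the alternatives. Fold changes on this scale understate the change of low genes. Correlations were tested by permutation with scipy 1.17.1. Scripts were tested on simulated data.

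The members and lists were chosen with earlier results of these data known. Members were named in each population. A treatment change was named at an unadjusted p under 0.05 or where it was the largest in its contrast. From each list up to 2 called genes per direction were named. Replicate numbers name the mouse, so libraries of one mouse are paired across populations: their deviations had a mean r of 0.0386 over 69 pairs, beside −0.0109 over 231 pairs of other mice of the same treatment. The alternatives were another pseudocount, no filter, quantile normalization, TPM without the mitochondrial genome, ctrl libraries or batches alone, the mouse block, an exact sign-flip test, other covariates and leaving out each library.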

Additional observations from a re-analysis of the deposited data

Results flagged for a closer look

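Of 80 groups of 4 or 5 libraries, 3 held a library far from the others, and chance gives about 1 in 20. Fosb in the ctrl cardiomyocytes was at 183.3 TPM in mouse 1, against 112.7 to 124.3 TPM in the other 3 mice. Ier2 in the ctrl heart BECs was at 3067 TPM in mouse 11, against 2522 to 2576 TPM in the others. Zfp36 in the ctrl heart LECs was at 1703 TPM in mouse 1, against 2056 to 2068.5 TPM in the others.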

How the results depend on the processing

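Ier3 turned its sign against cardiomyocytes with quantile normalization (−0.20 in heart LECs and −0.39 in diaphragm LECs) and, in diaphragm LECs, in TPM without the mitochondrial genome (−0.13). Fosb for angII+VEGFC against angII turned to −0.23 in diaphragm LECs and 0.073 in cardiomyocytes with the number of detected genes as a covariate. Leaving out each library in turn, it ranged from −0.89 to 0.30 in cardiomyocytes, and from −1.17 to 0.0047 against ctrl. Between heart LECs and heart BECs 3 members were called in the ctrl libraries, in batch 1 and in batch 2, against 5 in all libraries and 4 to 6 with a library left out. Between heart and diaphragm LECs, 4 were called with quantile normalization, 0 in the ctrl libraries, 1 in batch 1 and 1 in batch 2, against 2, and 1 to 3 with a library left out. With the mouse as a replicate block 10, 10, 10, 7 and 3 members were called in the 5 comparisons of populations, and 0 in each interaction. With a library left out 9 to 10 were called in diaphragm LECs against cardiomyocytes and 0 to 1 for angII+VEGFC against ctrl in cardiomyocytes. Leaving out libraries for the interactions was chosen after the data had been seen and gave 0 calls. Of the relations with Fos, 0 passed in batch 1 and 6 without the 2 farthest libraries. Of those between populations 0 passed in either batch and 1, by r but not by rho, after subtraction of treatment means. The cause was not tested; batches hold fewer libraries.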
